A study of Homo sapiens with 13 samples.

Results

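The comparison set the bone-metastatic line M4 against the bone-metastatic line M1, both obtained from a human lung carcinoma of the non-small cell type. The arrays were chosen by their titles, 3 for M4 and 3 for M1, which made 6 of the 13 arrays of the series. According to the labels, control cells were injected into the hearts of mice, subpopulations that reached bone with high efficiency were recovered, and the metastatic activity of each was tested by injecting it again into groups of 10 mice. M4 and M1 therefore share the same control cells as their origin, and no line carries a treatment in the labels. The other arrays were 3 of M5, another line selected in the same way, 2 of control cells with a luciferase reporter and 2 of control cells without it. Each array held a pool of 3 groups of cells of its line, and the replicates are labelled as biological. Whether a line is 1 clone, and whether the pools came from separate mice, is not given in the sources used here, so the p-values measure the spread between these arrays. The question the comparison addresses is how far 2 lines selected for the same bone tropism differ from each other in transcript levels.

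Tumour cells that settle in bone act on the cells of the marrow through secreted factors, among them ligands that drive osteoclasts to resorb bone, and matrix breakdown in turn releases growth factors onto the tumour cells. Lines selected in mice for such behaviour are usually compared with the parental cells, and a comparison between sister lines shows which transcripts vary among cells of shared origin. Interleukin 13 signals through a receptor made of IL13RA1 and IL4R, which activates STAT6. IL13RA2 binds interleukin 13 tightly, has a short cytoplasmic tail and is classed as a decoy receptor, and it is known as a surface antigen of several tumour types.

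Few genes were called as different between the lines, which does not show that the other genes had equal levels. Of 11963 genes, 3 were called at an adjusted p under 0.05 by limma (0.0251%). CRIP1 rose in M4 (0.00836% of genes rose), and IL13RA2 and HCLS1 fell (0.0167%). In all, 339 genes had an unadjusted p under 0.05 (2.83%). The median absolute difference between the lines over all genes was 0.08 on the log2 scale, and 17 genes differed by at least 2-fold, 11 higher and 6 lower in M4. In the same fit 147 genes (1.23%) were called between M5 and M1 and 258 (2.16%) between M5 and M4. With the block described next, the counts were 193 (1.61%) and 221 (1.85%).

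The signals of the 62 Affymetrix control probe sets placed the 13 arrays in 4 clusters that the labels do not record. M4 replicate 1 and M1 replicate 1 shared cluster 2 with M5 replicate 1 and the second replicates of both kinds of control cells. M4 replicates 2 and 3 shared cluster 3 with M1 replicate 3, and M1 replicate 2 shared cluster 1 with the first replicates of both controls. M5 replicates 2 and 3 alone made up cluster 4. For them line and cluster cannot be told apart, and with the block M5 is compared with other lines through M5 replicate 1. Over all genes, the 3 pairs of different lines within a cluster correlated at r = 0.995 to 0.997, and the 5 pairs of the same line in different clusters at r = 0.991 to 0.993. Arrays therefore resembled their cluster more than their line, and called genes are given below also with the cluster as a block in the fit and within the clusters that hold both lines. Cluster 2 sets 1 M4 array against 1 M1 array and cluster 3 sets 2 against 1. With the block, 14 genes were called (0.117%), 5 higher (0.0418%) and 9 lower (0.0752%) in M4, and 579 had an unadjusted p under 0.05 (4.84%). The 3 genes called without the block were among the 14. All 3 M4 arrays lay beyond all 3 M1 arrays for 1036 genes (8.66%), above them for 547 (4.57%) and below them for 489 (4.09%).

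The arrays of both lines gave high signals for some epithelial and some mesenchymal genes and low signals for others of both kinds. The keratins KRT18 and KRT8 averaged 12.46 and 9.99 in M4 and 12.51 and 10.21 in M1, and vimentin (VIM) averaged 12.87 in M4 and 13.09 in M1. E-cadherin (CDH1) averaged 3.71 in M4 and 3.77 in M1, and EPCAM 3.42 in M4 and 3.56 in M1, both under the lower quartile of an array's signals, which lay at 4.41 to 4.56 on M4 arrays and at 4.48 to 4.53 on M1 arrays. On all 6 arrays, 9 of the 39 epithelial and 10 of the 38 mesenchymal genes measured lay under the lower quartile. Of the mesenchymal genes, ZEB2 averaged 3.48 in M4 and 3.42 in M1, and TWIST1 3.45 in M4 and 3.32 in M1. NKX2-1, the lung lineage factor, averaged 5.20 in M4 and 5.50 in M1. In the bulk samples used here, fewer cells with a transcript and less of it per cell cannot be told apart.

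IL13RA2 carried by far the greatest difference of any gene tested. Its log2 signal was 4.43, 6.26 and 5.84 in M4 replicates 1 to 3, against 9.93, 9.75 and 9.85 in M1 replicates 1 to 3. The M1 arrays lay within a narrow band, the M4 arrays were spread and every M4 array lay far below every M1 array. The mean was 5.51 ± 0.96 in M4 and 9.85 ± 0.09 in M1 (SD, n = 3 each), a difference of -4.34 ± 0.40 (SE), or 20.2-fold lower in M4 (95% interval -5.19 to -3.48; adjusted p = 0.00098 by limma). With the cluster block the difference was -4.69 ± 0.36 (25.8-fold; adjusted p = 0.000618). Within cluster 2 it was -5.50 and within cluster 3 -3.80. M4 replicate 1, the only M4 array of cluster 2, lay just above its lower quartile of 4.41. No detection calls were used, and signals under that quartile were treated as not told from background. The -5.50 and the fold values are therefore approximate sizes. The call was present in all 13 fits that left out an array without the block and in all 6 that left out an M4 or M1 array with it.

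The position of IL13RA2 among the other cells differed between the lines. M5 arrays lay at 9.42, 9.34 and 9.27, control cells with luciferase at 9.43 and 9.45, and control cells without luciferase at 6.73 and 8.11. All M4 arrays lay below, and all M1 arrays above, each of these 7 arrays. The gene lies on chromosome X and is represented by 1 probe set. The genes of the signalling receptor were added after the values were seen. IL13RA1 averaged 7.97 in M4 and 7.70 in M1, IL4R 6.54 in M4 and 6.72 in M1, and STAT6 8.90 in M4 and 9.01 in M1. The M4 arrays of IL13RA1, at 7.86 to 8.10, lay above its M1 arrays, at 7.62 to 7.79. Such a lack of overlap was found for 8.66% of all genes. With IL13, IL4 and IL2RG, 0 of these 6 genes were called by limma with or without the block, and 0 had an unadjusted p under 0.05 without it.

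**Figure D1:**
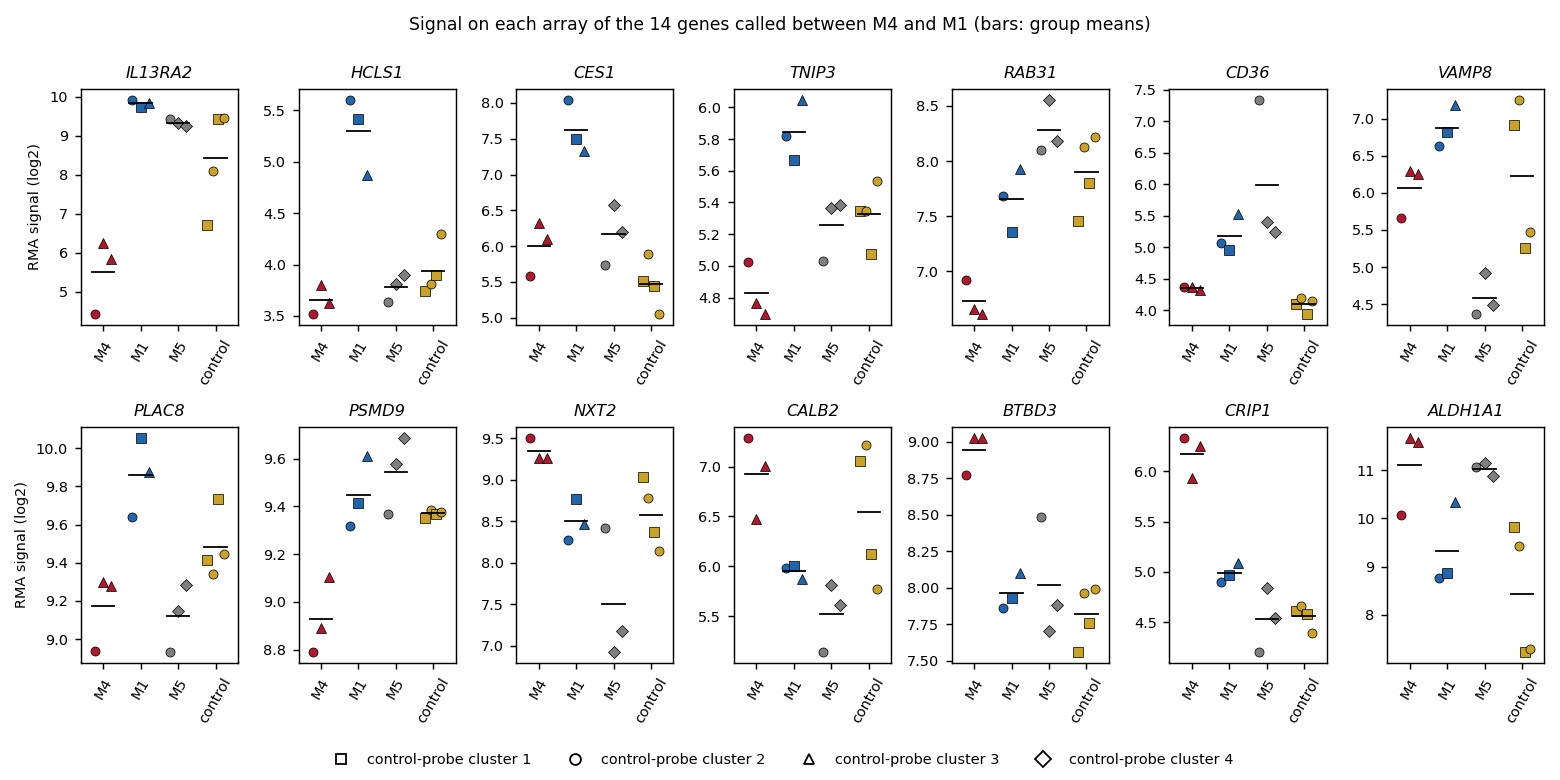
RMA log2 signal on each of the 13 arrays for the 14 genes called with the cluster block, grouped as M4, M1, M5 and control (both kinds of control cells together), with bars at the means and the symbol shape giving the control-probe cluster. IL13RA2 shows the M4 arrays at 4.43 to 6.26 and the M1 arrays at 9.75 to 9.93, and for ALDH1A1 the M4 array of cluster 2 lies below the M1 array of cluster 3.

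HCLS1, the haematopoietic relative of cortactin that binds actin filaments and is best known from blood cells, was the other gene that fell. Its signal was 3.52, 3.80 and 3.63 in M4 replicates 1 to 3, against 5.61, 5.42 and 4.87 in M1 replicates 1 to 3. All 3 M4 arrays lay under the lower quartile of their array's signals, a range treated here as not told from background, and no M1 array did. The mean was 3.65 ± 0.14 in M4 and 5.30 ± 0.38 in M1 (SD, n = 3 each), a difference of -1.65 ± 0.18 between the measured signals (SE; 95% interval -2.03 to -1.27; adjusted p = 0.00295). Because the M4 signals lie in that range, the ratio of the signals, 3.14-fold lower in M4, is not a measured size of the transcript's difference. With the block it was -1.61 ± 0.17 (adjusted p = 0.00598), within cluster 2 -2.09 and within cluster 3 -1.16. The call was lost with only the 6 arrays and the block (adjusted p = 0.127). In that fit M1 replicate 2 is alone in its cluster and does not enter the difference. M5 arrays, at 3.63 to 3.90, and control arrays, at 3.74 to 4.30, were also under their lower quartiles, and the M1 arrays lay above all of them. Of 14 human markers of blood cells measured, 0 were called by limma in either fit and 0 had an unadjusted p under 0.05, PTPRC (CD45) averaged 3.93 in M4 and 4.06 in M1, the mean over the list was 4.16 to 4.35 on M4 arrays and 4.20 to 4.30 on M1 arrays, and 7 of the 14 lay under the lower quartile on all 6 arrays.

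CRIP1, a small cysteine-rich protein with a LIM domain, was the only gene called as higher in M4 without the block. It falls outside the rule for named genes, because its level is below the median of all genes, and was named after its values were seen. Its signal was 6.33, 5.93 and 6.25 in M4 replicates 1 to 3, against 4.90, 4.97 and 5.09 in M1 replicates 1 to 3. The groups did not overlap, and every M4 array was above every other array of the series, M5 lying at 4.21 to 4.84 and control at 4.39 to 4.66. The M1 arrays also lay above all M5 and control arrays, by less. The mean was 6.17 ± 0.21 in M4 and 4.99 ± 0.10 in M1 (SD, n = 3 each), a difference of 1.19 ± 0.16 (SE; 2.28-fold higher; 95% interval 0.85 to 1.52; adjusted p = 0.0186). With the block it was 1.21 ± 0.13 (adjusted p = 0.006), within cluster 2 1.43 and within cluster 3 1.00. The call was made in 8 of the 13 fits without the block that left out an array, and adjusted p reached 0.183 without M4 replicate 3 and 0.182 without M1 replicate 1. With the block the call was lost without M4 replicate 1 (adjusted p = 0.173) and with only the 6 arrays.

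Of the 3 genes called without the block, IL13RA2, HCLS1 and CRIP1, 2 matched RefSeq's promoter table for GRCh38.p14, and the promoters of HCLS1 and CRIP1 are shown. They run from 250 bases before to 50 after the annotated start, read 5′ to 3′ on the gene's strand, with motif matches in capitals. Motifs were searched on both strands. Of 35116 promoters in the table, 11.5% held TATAAA and 34.6% held the CCAAT box. The share with GGGCGG, the GC box, was 45%. The share with TGANTCA, a pattern that includes the AP-1 element but allows any middle base, was 7.71%.
HCLS1, minus strand, chr3:121660854-121661153: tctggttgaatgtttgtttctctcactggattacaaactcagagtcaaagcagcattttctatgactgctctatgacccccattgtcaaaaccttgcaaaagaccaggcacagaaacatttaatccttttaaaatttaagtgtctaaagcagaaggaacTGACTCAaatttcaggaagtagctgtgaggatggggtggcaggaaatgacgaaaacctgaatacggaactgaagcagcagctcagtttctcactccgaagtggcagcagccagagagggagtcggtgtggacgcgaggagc
CRIP1, plus strand, chr14:105486636-105486935: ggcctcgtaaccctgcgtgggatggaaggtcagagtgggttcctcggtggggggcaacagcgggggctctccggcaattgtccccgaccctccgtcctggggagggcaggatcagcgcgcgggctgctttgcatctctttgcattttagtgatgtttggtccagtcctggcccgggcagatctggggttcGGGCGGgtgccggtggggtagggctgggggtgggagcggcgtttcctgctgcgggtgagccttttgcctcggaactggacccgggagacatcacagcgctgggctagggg
The HCLS1 window held 6 CG dinucleotides and 1 match to TGANTCA, beginning at base -91 from the start. The CRIP1 window held 20 CG dinucleotides and 1 match to GGGCGG, beginning at base -60. The median over all promoters was 14 CG dinucleotides, with quartiles of 4 and 28, and both windows lay between the quartiles. A match is a description of the letters in the window and not of a bound site.

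The other 11 genes were called only with the cluster block, and the adjusted p without it is given beside each. Among them, 4 rose in M4 with the block. ALDH1A1, a retinaldehyde dehydrogenase that makes retinoic acid and marks stem-like cells in several tumours, had the greatest rise of the 4. Its signal was 10.07, 11.67 and 11.57 in M4 replicates 1 to 3, against 8.76, 8.86 and 10.33 in M1 replicates 1 to 3. The groups overlapped, because M4 replicate 1 in cluster 2 lay below M1 replicate 3 in cluster 3, while within each cluster M4 was higher, by 1.31 in cluster 2 and 1.29 in cluster 3. The difference with the block was 1.31 ± 0.11 (SE; 2.48-fold; adjusted p = 0.00103), and without it 1.79 ± 0.42 (adjusted p = 0.724). It remained called in all 6 fits with the block that left out an M4 or M1 array. M5 arrays lay at 10.87 to 11.15, above all M1 arrays. Control arrays lay at 9.82 and 9.42 without luciferase and at 7.23 and 7.29 with it, all below the M4 arrays.

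BTBD3, a BTB domain protein known from the orientation of dendrites in mouse neurons, was at 8.77, 9.03 and 9.02 in M4 replicates 1 to 3, against 7.86, 7.93 and 8.10 in M1 replicates 1 to 3. The M4 arrays stood above the 10 other arrays of the series. The difference with the block was 0.86 ± 0.11 (SE; adjusted p = 0.00972; 0.282 without the block), with 0.91 within cluster 2 and 0.93 within cluster 3. The call of BTBD3 with the block was kept in 3 of 6 fits that left out an M4 or M1 array, and its adjusted p was 0.334 without M1 replicate 3, 0.158 without M4 replicate 1 and 0.0544 without M1 replicate 1. NXT2, a cofactor of messenger RNA export, was at 9.51, 9.26 and 9.26 in M4, against 8.27, 8.77 and 8.46 in M1, and here too the M4 arrays were the highest of the series. Its difference with the block was 0.96 ± 0.11 (adjusted p = 0.006; 0.9997 without the block), and its second probe set differed by 0.82 with the block and 0.76 without it. The difference of NXT2 was 1.23 within cluster 2 and 0.80 within cluster 3, and its call was lost without M4 replicate 1 (adjusted p = 0.232). CALB2, the calcium buffer calretinin, was at 7.29, 6.47 and 7.004 in M4, against 5.98, 6.005 and 5.87 in M1, a difference with the block of 1.08 ± 0.17 (adjusted p = 0.038; 0.467 without the block), with 1.31 within cluster 2 and 0.86 within cluster 3. The call of CALB2 with the block was kept only without M4 replicate 2 among the 6 fits that left out an M4 or M1 array, with an adjusted p of 0.0964 to 0.635 in the others.

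Of the 7 further genes that fell in M4 with the block, 2 belong to vesicle traffic. RAB31, a small GTPase of transport between Golgi and endosomes, was at 6.92, 6.66 and 6.61 in M4, against 7.69, 7.35 and 7.92 in M1. Each M4 array was lower than the 10 other arrays of the series. The difference with the block was -1.07 ± 0.13 (SE; adjusted p = 0.00929; 0.553 without the block), and the other 2 probe sets of RAB31 differed by -0.93 and -1.14 with the block. The difference was -0.77 within cluster 2 and -1.29 within cluster 3, and the call was lost without M1 replicate 3 (adjusted p = 0.336). VAMP8, a SNARE protein of endosome fusion and secretion, was at 5.66, 6.29 and 6.25 in M4, against 6.64, 6.82 and 7.18 in M1. Its difference with the block was -1.01 ± 0.14 (adjusted p = 0.0185; 0.862 without the block), with -0.97 within cluster 2 and -0.91 within cluster 3. The call of VAMP8 was kept in 2 of the 6 fits with the block that left out an M4 or M1 array, with an adjusted p of 0.423 without M4 replicate 1, 0.167 without M1 replicate 3, 0.0662 without M4 replicate 3 and 0.0503 without M4 replicate 2. M5 lay below both lines at 4.37 to 4.92.

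CES1, a carboxylesterase that hydrolyses esters and many drugs, was at 5.59, 6.33 and 6.10 in M4, against 8.05, 7.50 and 7.33 in M1. The M1 arrays lay above all others in the series, and the M4 arrays lay among those of M5, at 5.73 to 6.57, and control, at 5.05 to 5.90. The difference was -1.66 ± 0.25 with the block (SE; 3.16-fold lower; adjusted p = 0.0333; 0.0656 without the block), and -2.46 within cluster 2 and -1.11 within cluster 3. The call of CES1 was kept in 2 of the 6 fits with the block that left out an M4 or M1 array, with an adjusted p of 0.462 without M4 replicate 1, 0.0767 without M4 replicate 3, 0.0748 without M1 replicate 2 and 0.0640 without M1 replicate 1. It was lost as well with only the 6 arrays and the block. CD36, a scavenger receptor that takes up fatty acids, was at 4.38, 4.37 and 4.33 in M4, against 5.06, 4.96 and 5.53 in M1, and all 3 M4 arrays were under their lower quartile. The measured signals differed by -0.95 ± 0.11 with the block (adjusted p = 0.006; 0.9997 without the block), by -0.69 within cluster 2 and by -1.18 within cluster 3, and the call was lost without M1 replicate 3 (adjusted p = 0.171). Its other 2 probe sets differed by -1.11 and -0.22 with the block. M5 replicate 1 stood apart at 7.35, with the other M5 arrays at 5.40 and 5.24.

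TNIP3, a partner of A20 that restrains NF-kappaB signalling, was at 5.02, 4.77 and 4.70 in M4, against 5.82, 5.67 and 6.05 in M1. It was named after its values were seen, since its level is below the median of all genes. The M4 arrays were the lowest of the series and the M1 arrays the highest, with a difference of -1.08 ± 0.13 with the block (SE; adjusted p = 0.006; 0.0585 without the block), -0.80 within cluster 2 and -1.32 within cluster 3. The call of TNIP3 with the block was lost without M1 replicate 3 (adjusted p = 0.171). PLAC8, a small cysteine-rich protein, was at 8.94, 9.30 and 9.28 in M4, against 9.64, 10.06 and 9.88 in M1, a difference with the block of -0.68 ± 0.10 (adjusted p = 0.0269; 0.467 without the block), -0.70 within cluster 2 and -0.59 within cluster 3. PSMD9, a chaperone of proteasome assembly, was at 8.79, 8.89 and 9.10 in M4, against 9.32, 9.41 and 9.61 in M1, and differed by -0.59 ± 0.09 with the block (adjusted p = 0.0428; 0.724 without the block), by -0.53 within cluster 2 and by -0.61 within cluster 3. The calls of PLAC8 and PSMD9 were lost in all 6 fits with the block that left out an M4 or M1 array (adjusted p from 0.0520 to 0.455 for PLAC8 and from 0.0690 to 0.521 for PSMD9), and the second probe set of PSMD9, at a mean of 4.65, differed by 0.08 without the block.

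**Figure D2:**
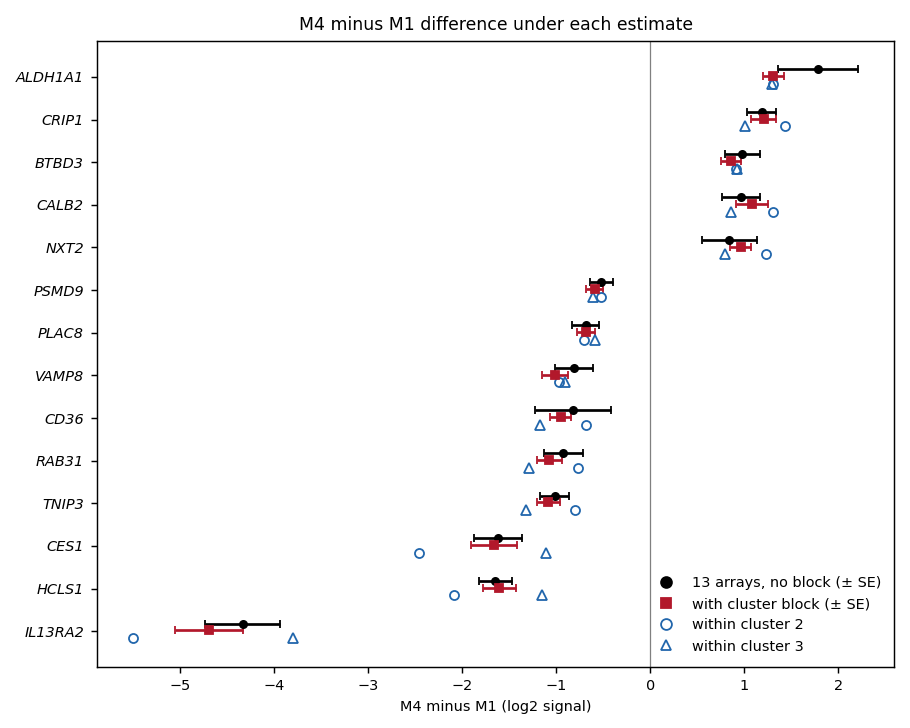
M4 minus M1 on the log2 scale for the 14 genes, in the fit of 13 arrays without a block and with the cluster block (bars are SE), and within clusters 2 and 3. The estimates of each gene lie on the same side of 0, from -5.50 to -3.80 for IL13RA2 and from 1.29 to 1.79 for ALDH1A1.

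Set against the control cells and M5, the 14 genes did not place M4 or M1 alone on the far side. IL13RA2 and TNIP3 were below all control arrays in M4 and above them in M1. CRIP1 was above all control arrays in both lines. CD36 was above them in M1, and its M4 and control signals both lay under the lower quartile, where their order is not read. BTBD3, NXT2 and ALDH1A1 were above all control arrays in M4 and overlapped them in M1, PLAC8, PSMD9 and RAB31 were below all of them in M4 and overlapped them in M1, and CES1 was above all of them in M1 and overlapped them in M4. HCLS1 was likewise above them in M1 and under the lower quartile in M4 and control. CALB2 and VAMP8 overlapped the control arrays in both lines. These positions describe genes chosen for their difference between M4 and M1 and were not tested.

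**Figure D3:**
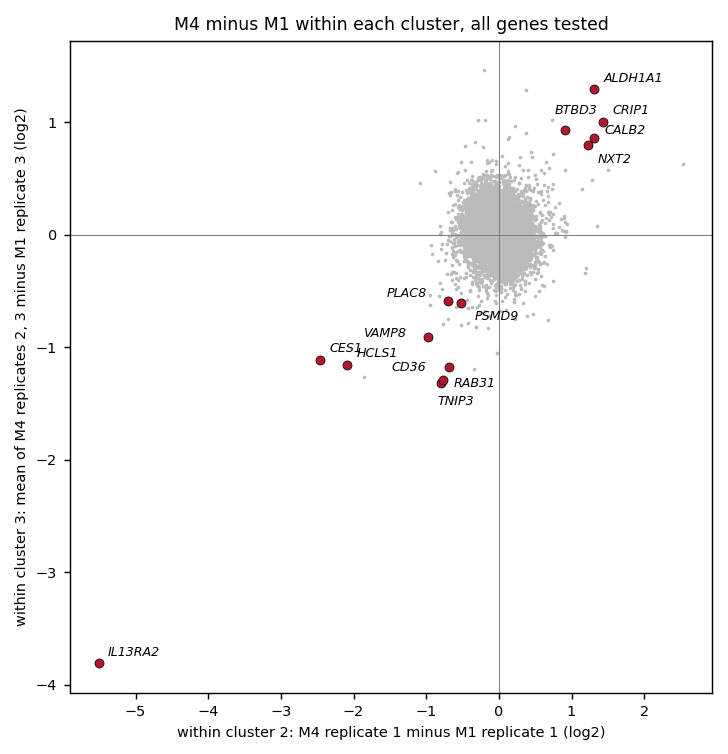
M4 minus M1 for every gene tested, within cluster 2 (horizontal axis, log2) and within cluster 3 (vertical axis, log2), with the 14 called genes in red. Most genes lie within a cloud around 0, and IL13RA2 stands alone at -5.50 and -3.80.

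Non-overlapping arrays, the same sign in both clusters and an unadjusted p under 0.05 were found for 237 genes (1.98%), most of them not called in either fit. FBN2, the microfibril protein fibrillin 2, was at 8.60, 8.93 and 8.69 in M4, against 6.06, 6.55 and 8.18 in M1, a difference of 1.81 ± 0.43 (SE; adjusted p = 0.737) without the block and 1.31 ± 0.32 with it (adjusted p = 0.379). M1 replicate 3 stood apart from the other M1 arrays, and the difference was 2.54 within cluster 2 and 0.63 within cluster 3. CD9, a tetraspanin of the cell surface, was at 7.52, 7.34 and 7.25 in M4, against 6.02, 5.49 and 6.72 in M1, a difference of 1.29 ± 0.25 (adjusted p = 0.284; 0.0595 with the block). Without M1 replicate 3, FBN2 and CD9 were both called in the fit without the block, and CD9 also with it (adjusted p = 0.00292). The efflux transporter ABCG2 differed by 0.65 ± 0.19 (adjusted p = 0.9997) and the stress kinase MAP2K6 by 0.71 ± 0.18 (adjusted p = 0.862), and with the block by 0.60 for ABCG2 and 0.55 for MAP2K6. Lower values in M4 without a call were found for TGFA, a ligand of EGFR, at 6.19, 6.52 and 6.43 in M4, against 8.04, 7.22 and 7.75 in M1, a difference of -1.29 ± 0.39 (adjusted p = 0.9997; 0.235 with the block). TGFA was called with the block without M1 replicate 2 (adjusted p = 0.0389) and with only the 6 arrays and the block. Neither fit uses M1 replicate 2, the lowest M1 array of TGFA, for the difference. All 3 probe sets of TGFA were lower in M4, the other 2 by 0.50 and 0.38. The same held for the 3 probe sets of IFI16, a nuclear DNA sensor, whose main probe set differed by -0.66 ± 0.18 (adjusted p = 0.862; 0.0569 with the block). PLEK2, which acts on the actin skeleton, differed by -0.92 ± 0.24, BAMBI, a decoy receptor of the TGF-beta family, by -0.89 ± 0.24, NT5E, the ectonucleotidase CD73, by -0.78 ± 0.24, and IGF2BP3, an RNA-binding protein, by -0.66 ± 0.19. With the block these 4 were at -0.70 for PLEK2, -0.71 for BAMBI, -0.63 for NT5E and -0.47 for IGF2BP3.

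Among 34 lists of pathway genes and cell type markers, 1 held a gene called without the block and 3 held genes called with it. Vesicle traffic and actin adaptors had 1 of 43 measured members called without the block, HCLS1, and 3 with it, HCLS1, RAB31 and VAMP8, all lower in M4, beside 0.0251% of all genes called without the block and 0.117% with it. The median of that list was 0.07 without the block and -0.01 with it, beside 0.01 and 0.00 for all genes. NRF2 targets and xenobiotic metabolism had 2 of 53 called with the block, ALDH1A1 higher and CES1 lower, and cholesterol and fatty acid synthesis had 1 of 36, CD36, which takes up fatty acids and does not synthesise them. The lists were chosen with earlier results of these data known, so a count of called members is not independent evidence about a list. In the other lists 0 members were called by limma in either fit, with 0 to 5 members at an unadjusted p under 0.05, beside 2.83% of all genes. The share of members whose M4 and M1 arrays did not overlap ran from 0% to 22.7% in the lists, beside 8.66% of all genes.

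Factors of osteolysis and bone metastasis had 34 measured members, of which 0 were called by limma in either fit and 2 had an unadjusted p under 0.05. Their median difference was -0.04 without the block and -0.02 with it. TNFRSF11B, osteoprotegerin, the decoy receptor that holds back osteoclast formation, was at 5.45, 6.27 and 5.99 in M4, against 4.70, 5.23 and 5.41 in M1, a difference of 0.79 ± 0.21 (SE; adjusted p = 0.862) without the block and 0.64 with it. IL6, a cytokine that stimulates osteoclasts, was at 8.28, 11.04 and 10.76 in M4, against 7.86, 8.15 and 10.47 in M1. The arrays of cluster 3 were the high ones in both lines, and the difference of IL6 was 1.20 ± 0.87 without the block and 0.24 ± 0.37 with it. The osteoclast-promoting chemokine CXCL8 averaged 12.8 in M4 and 12.9 in M1, and osteopontin (SPP1) averaged 12.8 in M4 and 12.7 in M1.

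NF-kappaB targets and inflammatory cytokines had the highest median of the 34 lists without the block, 0.14 over 43 members, and 0.01 with it. Within the clusters it was -0.08 in cluster 2 and 0.12 in cluster 3. The members with the greatest differences were IL6 and the chemokine CCL20, which differed by 1.15 ± 0.53 without the block (SE) and 0.69 ± 0.44 with it. By limma 0 members were called in either fit, and 4 had an unadjusted p under 0.05 without the block.

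In lists of cell identity, SNAI2, a transcription factor of the epithelial to mesenchymal transition, averaged 4.40 ± 0.24 in M4 and 5.40 ± 0.80 in M1 (SD, n = 3 each), and the receptor kinase AXL 8.42 ± 0.50 in M4 and 9.28 ± 0.42 in M1. Neither was called, and the differences shrank with the block to -0.59 for SNAI2 and -0.56 for AXL. Of the 38 mesenchymal genes measured, 5 had an unadjusted p under 0.05, beside 339 of 11963 genes (2.83%), and the median was -0.04. The same count was found among 33 genes of p53 targets, DNA damage and apoptosis and among 43 of vesicle traffic and actin adaptors. The 39 epithelial genes had a median of 0.01, with plakoglobin (JUP) at a difference of 0.71 ± 0.35 and KRT7 at 0.59 ± 0.27, and at 0.33 and 0.34 with the block. Within cluster 3 JUP differed by 0.03. HES1, a target of Notch, was at 5.41, 5.29 and 5.29 in M4, against 6.05, 6.65 and 5.56 in M1, a difference of -0.76 ± 0.23 that was not called (adjusted p = 0.9997) and that was -0.47 with the block, -0.64 within cluster 2 and -0.27 within cluster 3. Of the 48 genes of G1/S control and DNA replication and the 45 of G2/M and mitosis, 0 were called and 0 had an unadjusted p under 0.05 by limma without the block, with medians of 0.01 and 0.00.

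**Figure D4:**
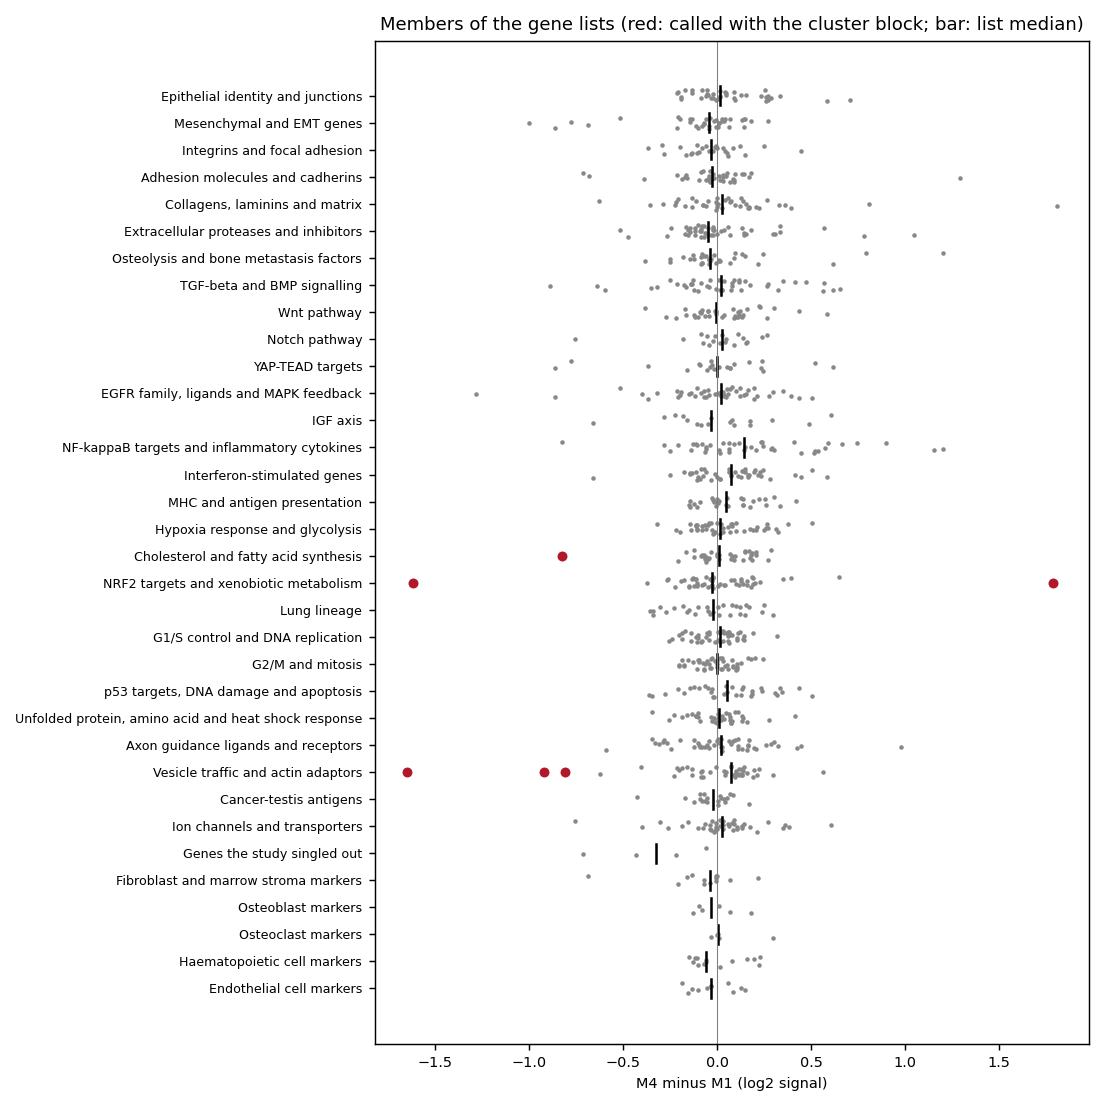
M4 minus M1 (log2 signal, fit without a block) of each measured member of the 34 gene lists, with the list's median as a bar and the genes called with the cluster block in red. The list medians lie from -0.33, for the 4 genes the study singled out, to 0.14, for NF-kappaB targets, and the red members are HCLS1, RAB31, VAMP8, CD36, CES1 and ALDH1A1.

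The lines were recovered from mice, and the probe sets are of human genes, and how far they detect mouse transcripts was not tested. Of 13 human markers of fibroblasts and marrow stroma, 6 of osteoblasts, 5 of osteoclasts and 11 of endothelial cells, 0 were called by limma in either fit, and 1 of them, the osteoclast protease CTSK, had an unadjusted p under 0.05, at a mean of 5.28 in M4 and 4.98 in M1. The mean over the stroma list was 4.93 to 5.06 on M4 arrays and 4.99 to 5.11 on M1 arrays. Its member COL3A1 was well above that mean, at 9.59 in M4 and 10.28 in M1. COL3A1 differed by -0.69 ± 0.32 (SE) without the block and -0.50 with it. Its other probe sets differed by -0.76, -0.99 and 0.01 without the block, the last at a mean of 3.90. The mean over the osteoblast list, which holds SPP1, was 5.87 to 6.05 on M4 arrays and 5.90 to 6.03 on M1 arrays. The endothelial marker PECAM1 averaged 4.20 in M4 and 4.23 in M1, under the lower quartile.

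The study singled out TCF4, PRKD3, MCAM and SUSD5 on these samples, so their direction is not independent evidence. Between M4 and M1 none of the 4 was called by limma in either fit, and 1, MCAM, had an unadjusted p under 0.05. MCAM, an adhesion molecule, was at 6.81, 6.01 and 6.14 in M4, against 7.59, 6.66 and 6.87 in M1, with overlapping arrays and a difference of -0.72 ± 0.30 (SE; adjusted p = 0.9997; 0.440 with the block). Within the clusters MCAM differed by -0.77 and -0.79, and it was called with the block without M1 replicate 2 (adjusted p = 0.0473). The transcription factor TCF4 differed by -0.06 ± 0.21, the kinase PRKD3 by -0.22 ± 0.29 and the sushi domain protein SUSD5 by -0.43 ± 0.32, and with the block by -0.05, -0.09 and -0.32. These p-values do not show that the lines have equal levels.

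By chromosome, following RefSeq, the median difference of the genes whose signal was above the median of all genes ran from -0.03 on chromosome 5 to 0.07 on chromosome 21, beside 0.02 over the 5976 such genes. Chromosome 5, with 270 of them, was the only one below 0 without the block, and it was at -0.07 with the block, -0.01 within cluster 2 and -0.10 within cluster 3. The median of its genes on the M4 arrays, each set against the M1 mean, was -0.04 to -0.02. Among runs of 31 neighbouring genes of this kind, the one furthest from 0 lay on chromosome 10 between PITX3 and RAB11FIP2, at 0.13 without the block and 0.08 with it, and none of its 31 genes was called.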

How the data were processed

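RNA of cultured cells was measured on 13 Affymetrix arrays. The authors deposited log2 signals of 22277 probe sets. Per the submitters' processing notes, RMA made them. Its version and any filter are not given in the sources used. RMA subtracts background, equalises the arrays' distributions and summarises probes, which compresses differences at low signals. The number of arrays limits the precision.

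Of the probe sets, 19064 name 1 gene, 1043 several and 2108 none, and the 62 control probe sets were kept apart. Each of 11963 genes was represented by its probe set of highest mean. Group means of 5 groups over 13 arrays were fitted with limma 3.58.1 in R 4.3.3 (lmFit, eBayes), with the contrast M4 minus M1 and Benjamini-Hochberg adjustment over all genes; the method was tested on simulated data. Arrays were clustered by Ward's method on the control probe sets, and the 4 clusters entered as a block beside the main fit. Replicate numbers were not used as pairs, since the deviations of same-numbered arrays correlated at 0.41, -0.06 and 0.22.

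Named genes are the up to 12 greatest rises and 12 greatest falls among called genes whose arrays do not overlap and whose higher group mean is above 6.20, the median of all genes, filled up with genes called with the block and then, given as not called, with genes at an unadjusted p under 0.01. From each list up to 4 called members were chosen, or the 2 with the greatest difference where none is called. The 4 genes singled out by the study are named too. CRIP1 and TNIP3, which were called but fall outside these rules, were added after their values were seen. The groups, the lists, the rule and the tests were chosen with earlier results of these data known. Chromosomes are RefSeq's (GRCh38.p14), which placed 11931 genes.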

Additional observations from a re-analysis of the deposited data

How the results depend on the processing

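IL13RA2 kept its direction and its call under all alternatives tried, at -5.68 to -3.80 on the log2 scale. HCLS1 did so at -2.11 to -1.16, except that with only the 6 arrays and the cluster block it had an adjusted p of 0.127. That fit has fewer arrays to estimate the spread, and M1 replicate 2 does not enter its difference. The reason for the lost call was not tested. CRIP1 stayed higher in M4 at 1.00 to 1.43, and its adjusted p lay above 0.05 in 8 alternatives, up to 0.183. Against 3 genes called without a block, there were 14 with the cluster block, 7 with clusters from the 45 spike-in probe sets alone, 5 with only the 6 arrays and the cluster block, and 1 with only the 5981 genes above the median signal, where HCLS1 and CRIP1 were not tested. With the replicate block, used as an alternative although the numbers do not pair the arrays, 2 genes were called (HCLS1 and IL13RA2) and 331 had an unadjusted p under 0.05; the same-numbered arrays did not correlate best with each other in every case. Leaving out 1 array gave 2 to 7 calls, with 7 without M1 replicate 3 (adding CD9, FBN2, IL15 and SYNE1), 6 without M5 replicate 1 and 2 without M4 replicate 3, M1 replicate 1, M1 replicate 2 or M5 replicate 3. Leaving out an M4 or M1 array with the cluster block, chosen after seeing the data, gave 7 to 13 calls, with 7 without M4 replicate 1, 8 without M1 replicate 3, 9 without M4 replicate 3, 11 without M1 replicate 1, 12 without M4 replicate 2 and 13 without M1 replicate 2. The cause of these shifts was not tested. Median centring, quantile normalization, the mean of all probe sets, a robust variance prior and the 6 arrays alone gave 3 or 4 calls, and an adjusted p under 0.01 gave 2.

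Of the named genes, those whose sign turned were not called in the main fit. TCF4 turned to 0.11 with the probe set of largest variance. On leaving out 1 array without the block, TCF4 ran from -0.18 to 0.12, TNFRSF11A from -0.12 to 0.0296 and DMP1 from -0.22 to 0.00206. With the block, the turned values were 0.0579 for TNFRSF11A and 0.00789 for CLDN5 without M4 replicate 1, 0.0851 for TCF4 without M4 replicate 2, and -0.00781 for COL8A1 without M1 replicate 1. With the block and without M1 replicate 3, PI3 was at -0.51, SLPI -0.26, CXCL12 -0.17, CTSS -0.16, CDKN1A -0.11, CD3D -0.0834, ZMAT3 -0.00713, CKS2 0.0530, SUSD5 0.0691 and TCF4 0.16. Low signals limit HCLS1 and CD36, whose M4 arrays lie under the lower quartile, and IL13RA2 on M4 replicate 1, where its signal lies just above that quartile.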

Other observations

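The rest of the 17 genes that differed by at least 2-fold, chosen after their values were seen, were not called by limma in either fit unless named above. DHRS3, a retinaldehyde reductase, was at 5.74, 7.18 and 7.33 in M4, against 5.37, 5.31 and 5.96 in M1, a difference of 1.20 ± 0.33 (SE) without the block and 0.88 ± 0.17 with it (adjusted p = 0.153). VWA5A, a protein with a von Willebrand factor domain, was at 8.80, 9.53 and 9.41 in M4, against 7.90, 7.61 and 8.89 in M1, and SYNE1, which links the nucleus to the cytoskeleton, at 6.18, 5.97 and 5.95 in M4, against 4.90, 4.70 and 5.47 in M1. With the block VWA5A differed by 0.71 and SYNE1 by 0.88. DHRS3 was called without M4 replicate 1, with and without the block, and SYNE1 without M1 replicate 3, likewise. The antimicrobial peptide gene DEFB1 differed by 1.19 ± 0.48 without the block and 0.54 ± 0.19 with it. ALDH1A1 and DHRS3 both act on retinaldehyde, so 16 measured genes of retinoid metabolism and signalling were read together after the values were seen. Of these, 7 were higher and 9 lower in M4, with a median of -0.02, and ALDH1A1 alone was called, with the block.

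The 3151 probe sets that name several genes or none gave 0 calls by limma in either fit, with 89 at an unadjusted p under 0.05 without the block and 147 with it.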
